A study of Mus musculus with 3 samples.

Results

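Caseins and whey proteins make up most of the protein of milk, and their transcripts were followed here in mouse mammary tumor cells exposed to RANK ligand (RL). The genes were Lalba, Wap, Csn1s1, Csn1s2a, Csn1s2b, Csn2, Csn3 and Glycam1, and a probe belonged to the group if its transcript name on the array mapped to 1 of these 8 symbols. They were 8 of the 21154 gene symbols matched on the array, were read by 10 probes, and 6 of the 8 genes could be tested. RNA was taken from primary tumor cultures of 3 MMTV-PyMT mice, with tumor codes 811a, 812a and 815a, called tumors 1, 2 and 3 here. Of each tumor, a culture given RL for 24 h and an untreated control culture were hybridized to the same Agilent array in different dyes, which gave 3 arrays and 6 channels. RL was in Cy3 for tumors 1 and 3 and in Cy5 for tumor 2, so dye order and tumor 2 cannot be told apart. A limma fit with a dye term therefore follows tumor 2 exactly, and its p-values rest on the spread between tumors 1 and 3.

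All cultures, treated or not, were kept in DMEM F12 with FBS, P/S, cholera toxin, insulin and EGF, and the labels name no prolactin and no glucocorticoid. The labels give the RL dose as 1000 ug/ml and the methods of the study as 1 µg/mL, and it was not settled here which was used. That these arrays are the RL experiment of those methods was taken from the labels and the design text. The study's data availability statement names a different series for its preclinical microarrays. The methods speak of dye swaps for each sample, whereas each tumor has 1 array here. In MMTV-PyMT mice the polyoma middle T oncogene is driven by a mouse mammary tumor virus promoter, which is active in mammary epithelium and responds to steroid hormones. The methods describe PyMT mice crossed with RANK mutants on a C57BL/6 background, and acinar cultures made on matrigel from RANK+/+ or RANK-/- transplants. The labels call these 3 cultures primary and give no strain, RANK genotype or age. Well above local background in a given channel were 54.6% to 56.2% of all probes, and the scanner software marked 0 spots as saturated.

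Milk proteins are made by secretory alveolar cells of the mammary gland in late pregnancy and lactation. Caseins are phosphoproteins that bind calcium and assemble into micelles, whereas whey proteins stay in solution. Prolactin, acting through its receptor, Jak2 and Stat5, together with glucocorticoids and insulin, is the known hormonal drive of their transcription, whereas RL is made by hormone-sensing luminal cells and binds its receptor RANK on neighboring epithelial cells.

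The cultures carried the markers of their labelled tissue. All 9 luminal epithelial markers of the list, keratins, claudins, Epcam, Cdh1 and Elf3, were well above background in all 6 channels. All 7 alveolar progenitor markers were above background in each channel as well, as were 6 to 8 of 8 basal epithelial markers. Of the lymphocyte markers Cd3d, Cd8a and Cd79a, of the endothelial markers Tek, and of the adipocyte markers Adipoq, Plin1, Lep and Cidec were not well above background in any channel. All 6 genes chosen as a check of the response to RL, targets and members of the NF-κB pathway, were above 0 on all 3 arrays. This held for 3068 of 21721 genes (14.1%). The list was chosen with earlier results of these data known. Its median log2 ratio of RL over control was 0.59. Nfkbia, the NF-κB inhibitor that NF-κB itself induces, had 1.47, 0.47 and 0.38 in tumors 1, 2 and 3, and the signaling adaptor Traf1 had 1.14, 0.31 and 0.65. Nfkb2 and Relb, subunits of the noncanonical pathway, had 1.25, 0.43 and 0.20 and 1.15, 0.29 and 0.21, with means of 0.63 and 0.55. Tumor 1 was the highest for all 6 genes, and without it these means were 0.31 and 0.25 and the median of the list 0.35. By limma 0 of these 6 genes passed an adjusted p of 0.05. All 6 were higher at an unadjusted p under 0.05, against 762 of all 21743 genes and transcripts. By rank product Nfkbia, Traf1 and Nfkb2 were among 37 higher genes, with proportions of false positives of 0.00152, 0.00123 and 0.029. With a dye term in limma they and Relb (adjusted p = 0.00915) were among 121.

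Detection of the milk protein genes was fullest in the control culture of tumor 1. In the control cultures 8, 6 and 7 of the 8 genes were well above local background in tumors 1, 2 and 3. In the RL cultures the counts were 7, 6 and 6. Lalba, Wap, Csn1s1, Csn2, Csn3 and Csn1s2b were detected in all 6 channels, each by at least 1 probe, and these were the 6 genes tested. Of the 10 probes 7 were kept, that is, well above background in all 3 channels of at least 1 condition.

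**Figure D1:**
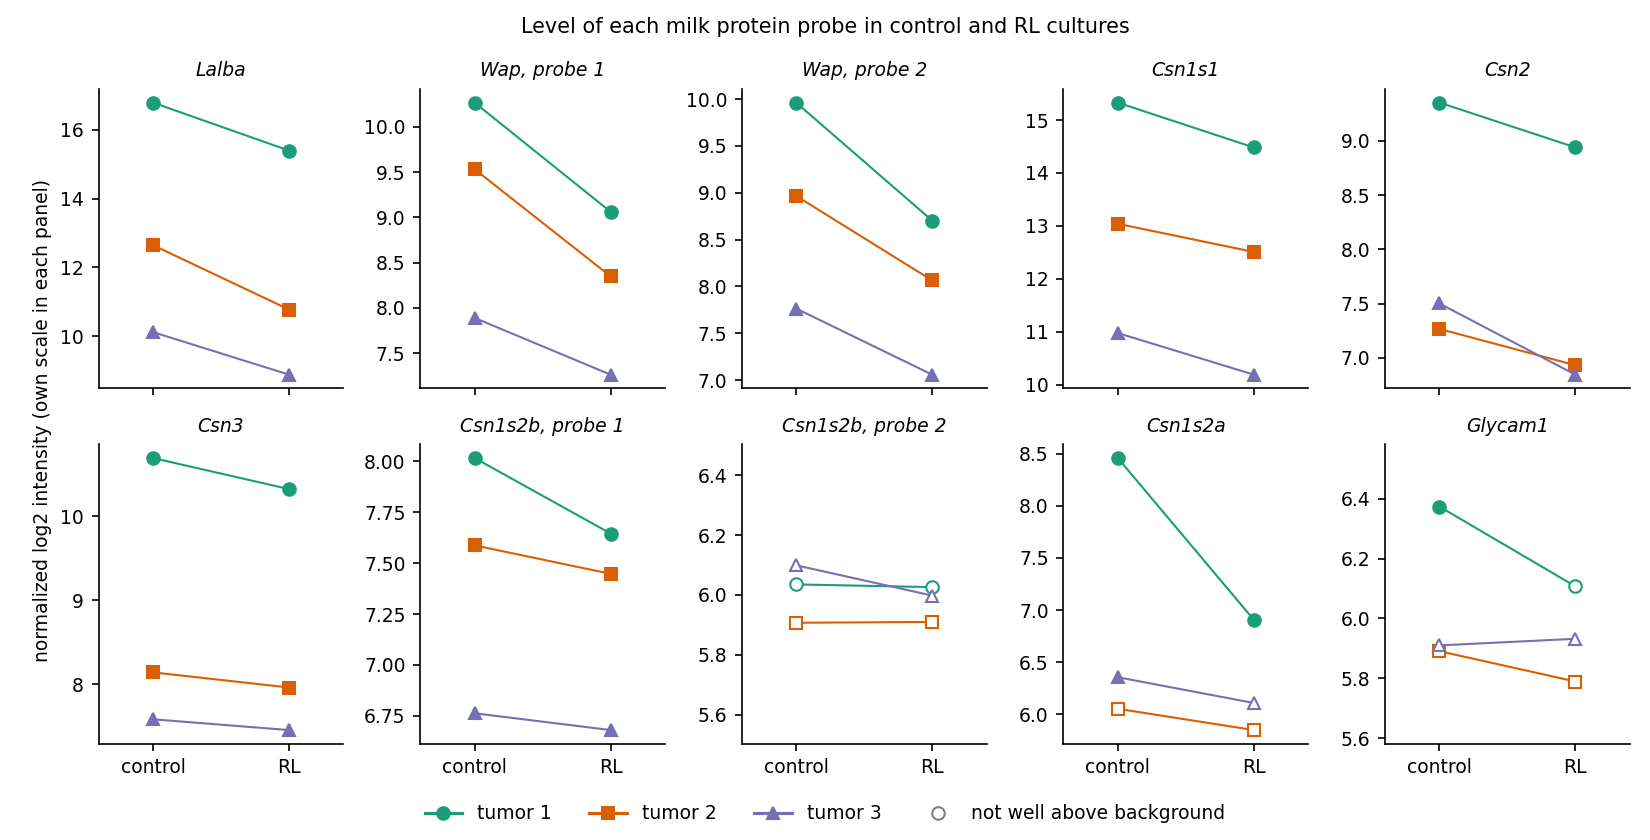
Normalized log2 intensity of each of the 10 milk protein probes in the control and RL culture of each tumor, with a scale of its own in each panel and lines joining the cultures of a tumor; open symbols were not well above background. In the Lalba, Wap and Csn1s1 panels every line slopes down, and tumor 1 lies highest.

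Lalba encodes alpha-lactalbumin, the whey protein that binds the galactosyltransferase B4galt1 and turns it into lactose synthase. Its probe had normalized log2 intensities of 16.79, 12.65 and 10.12 in the control cultures of tumors 1, 2 and 3. In the RL cultures of the same tumors they were 15.40, 10.77 and 8.88. The RL culture was the lower of the pair in each tumor, while the ranges of control and RL cultures overlapped because the tumors themselves lay far apart. Before any correction the Lalba spot of tumor 1 read 160181 in the control channel over a background of 74, and 27155 over 33 in the RL channel. In tumor 3 the readings were 1520 over 78 and 354 over 42. Raw readings of the channels are not on the same dye scale, and the log2 ratios come from normalized values.

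The log2 ratio of RL over control of Lalba was −1.40, −1.87 and −1.24 in tumors 1, 2 and 3, which is 2.63-fold, 3.66-fold and 2.36-fold lower. Its mean was −1.50 (SE 0.11, n = 3 tumors), a 2.83-fold fall with an adjusted p of 0.0106 from limma. No gene tested had a lower mean. Among the 6 milk protein genes tested, 3 fell past an adjusted p of 0.05 in limma, against 5 of all 21743 genes and transcripts, or 0.0230%. The other 2 of these 5 were Foxi1 and Lrg1. In the opposite direction 0 milk protein genes passed, against 1 of all genes, Ubd (0.00460%). At an unadjusted p under 0.05 all 6 milk protein genes were lower and 0 higher, with 778 and 762 over all genes. All 6 also had log2 ratios below 0 on all 3 arrays, which held for 2943 of 21721 genes (13.5%), and 0 were above 0 on all 3, against 3068 of all genes (14.1%). In bulk cultures, fewer cells that make milk proteins and less of their RNA per cell cannot be told apart.

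These calls depended on the processing. With the scanner software's processed signals and with median centring 0 milk protein genes passed in limma. The adjusted p of Lalba from limma was then 0.376 and 1. At an unadjusted p under 0.05, 6 and 2 of the milk protein genes were lower, against 806 and 16 of all genes. With no offset, no filter on dim probes, a filter on all 6 channels or the mean over probes, 1 milk protein gene passed. The count over all genes depended on single arrays as well. Without tumor 1 it was 1 lower and 0 higher, without tumor 2 it was 915 and 557, and without tumor 3 it was 2 and 0. The milk protein genes among the lower genes were then 1, 4 and 2. Lalba passed in each case, with adjusted p of 0.0109, 1.38e-11 and 0.0298 from limma. Without tumor 2 both arrays left have RL in Cy3, so that RL and dye cannot be told apart, and there Actb (adjusted p = 4.32e-06) and Krt18 (1.56e-06) passed in limma as well. When the 6 channels were taken as unpaired samples, limma passed 0 genes, 20 being lower and 44 higher at an unadjusted p under 0.05, and the adjusted p of Lalba was 1 (range over 20 alternatives 1.16e-15 to 1).

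**Figure D2:**
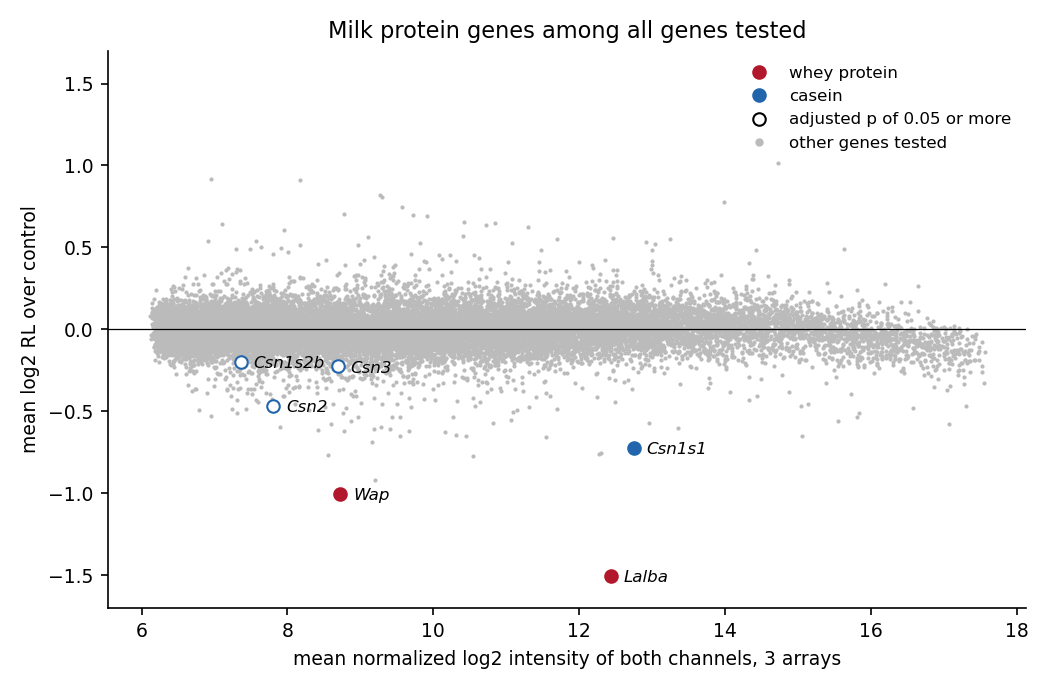
Mean log2 RL over control of 3 tumors against mean normalized log2 intensity of both channels, for all 21743 genes and transcripts tested, with the 6 milk protein genes marked and filled where the adjusted p from limma was under 0.05. Lalba (−1.50) and Wap (−1.01) lie lowest of all points, and all 6 marked genes lie below 0.

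Wap encodes whey acidic protein, a small cysteine-rich protein of rodent milk that gave its name to the WAP domain. It was read by 2 probes, which allowed a comparison within the gene. The brighter probe had log2 intensities of 10.27, 9.53 and 7.89 in the control cultures and 9.06, 8.35 and 7.26 in the RL cultures. The dimmer probe had 9.96, 8.97 and 7.76 in the control cultures and 8.70, 8.06 and 7.06 in the RL cultures. By either probe the RL culture was the lower in each tumor and tumor 3 had the lowest levels. The control level of tumor 3 lay below the RL level of tumor 1, so that the conditions overlapped.

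On the brighter probe the log2 ratio of Wap was −1.21, −1.18 and −0.63, with a mean of −1.01 (SE 0.11) or 2.01-fold, and it fell with an adjusted p of 0.0456 from limma. On the dimmer probe it was −1.26, −0.90 and −0.71, with a mean of −0.96 (SE 0.10). The brighter minus the dimmer probe differed by 0.05, −0.28 and 0.08 in the 3 tumors, a mean of −0.05 with an SD of 0.20, which is less than their spread between arrays. When limma was run over the 29429 kept probes, the adjusted p was 0.0320 for the brighter and 0.0288 for the dimmer probe. In that fit 8 probes of all genes were lower (0.0272%), among them both Wap probes and the probes of Lalba (adjusted p = 0.00685) and Csn1s1 (adjusted p = 0.0320). Without tumor 1 the adjusted p of the brighter Wap probe was 0.156 in the fit over genes from limma, and its log2 ratio −0.91. Over the 20 alternatives its adjusted p lay between 2.08e-09 and 1.

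**Figure D3:**
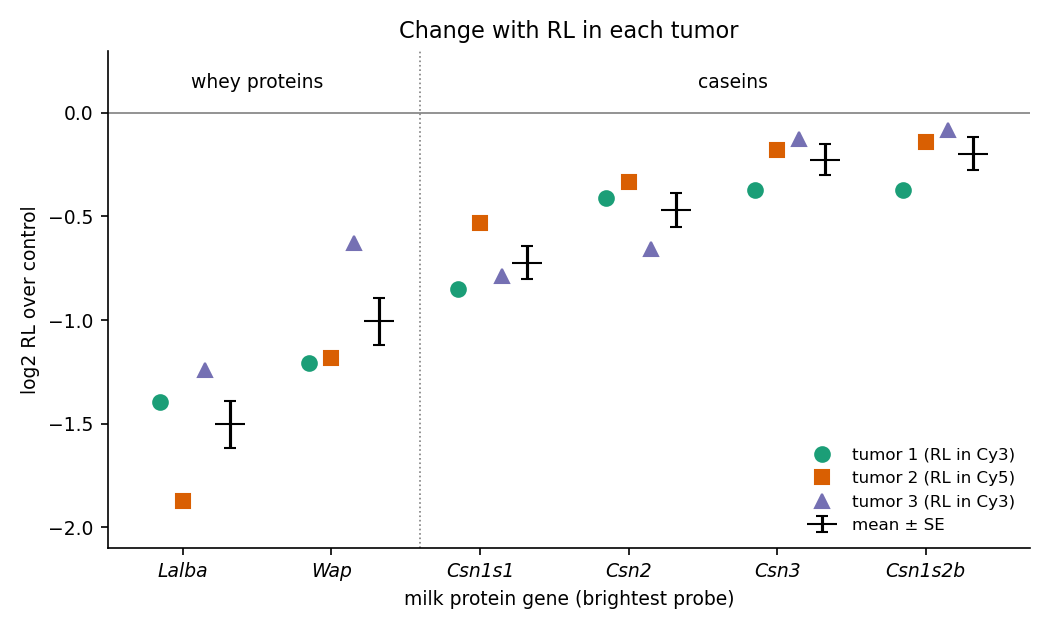
Log2 RL over control of the 6 tested milk protein genes in each tumor, at the brightest kept probe, with the mean and its SE from limma (n = 3). All points lie below 0, and the means of the whey proteins (−1.50 and −1.01) lie below those of the caseins (−0.72 to −0.20).

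Csn1s1 encodes alpha-S1-casein, a calcium-sensitive casein of the micelle. Its log2 intensities were 15.33, 13.04 and 10.97 in the control cultures and 14.48, 12.51 and 10.19 in the RL cultures of tumors 1, 2 and 3. The RL culture was again the lower in every tumor, and the order of the tumors was that of Lalba. The log2 ratios were −0.85, −0.53 and −0.79, with a mean of −0.72 (SE 0.08) or 1.65-fold, and Csn1s1 fell with an adjusted p of 0.0456 from limma. It was the 1 casein past the threshold. Its adjusted p was 0.202 without tumor 1 and 0.332 without tumor 3 (log2 ratios −0.66 and −0.69), and between 2.65e-07 and 1 over the 20 alternatives. From the log2 ratios that the authors deposited, limma gave it an adjusted p of 0.0504.

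Csn2 encodes beta-casein, widely used as a readout of mammary differentiation in culture. Its log2 intensities were 9.35, 7.27 and 7.50 in the control cultures and 8.94, 6.93 and 6.85 in the RL cultures. Tumor 1 was highest in both conditions, while tumors 2 and 3 lay close together. The log2 ratios of −0.41, −0.33 and −0.66 had a mean of −0.47 (SE 0.08, adjusted p = 0.187 from limma), or 1.38-fold lower. Only some other tests called it: it had a proportion of false positives (pfp) of 0.0224 by rank product, an adjusted p of 0.000836 with a dye term in limma, and 0.000127 without tumor 2, where RL and dye cannot be told apart. By rank product Lalba was placed first from the lowest, Wap was at place 3, Csn1s1 at 7 and Csn2 at 30, with pfp of 1.82e-07, 1.06e-05 and 0.000212 for the former 3. These 4 milk protein genes were among 51 lower genes by rank product (0.235%). The dye term fits tumor 2 exactly, so p-values with it leave out how far tumor 2 lay from the others. With the dye term the same 4 were among 158 (0.727%).

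Csn3 and Csn1s2b had the smallest ratios. Csn3 encodes kappa-casein, which coats the micelle and keeps it in suspension, and its log2 intensities were 10.696, 8.14 and 7.58 in control and 10.33, 7.96 and 7.46 in RL cultures. The log2 ratios of Csn3 were −0.37, −0.18 and −0.13, with a mean of −0.23 (SE 0.08, adjusted p = 0.562 from limma). Csn1s2b encodes an alpha-S2-type casein and was at 8.02, 7.59 and 6.76 in control and 7.65, 7.45 and 6.68 in RL cultures. Its log2 ratios were −0.37, −0.14 and −0.08, with a mean of −0.20 (SE 0.08, adjusted p = 0.680 from limma). With a tumor left out the mean of Csn1s2b ran from −0.26 to −0.11, the latter without tumor 1. For both genes each RL culture read below its own control. The other Csn1s2b probe was not well above background in any channel, so it gives no ratio.

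The remaining 2 genes were too dim to pass the filter. Csn1s2a, another alpha-S2-type casein, was well above background in the control cultures of tumors 1 and 3 and in the RL culture of tumor 1. In tumor 1 its log2 intensity was 8.46 in the control and 6.91 in the RL culture, a log2 ratio of −1.55 with no replicate. The control of tumor 3 was at 6.36. In the fit with no filter its log2 ratios were −1.55, −0.20 and −0.25, a mean of −0.67 (SD 0.76). Limma gave it an adjusted p of 0.726 and an unadjusted p of 0.0260. This made it the seventh milk protein gene lower at an unadjusted p under 0.05, with 1147 lower and 1140 higher over all genes. Of the channels behind that mean, both of tumor 2 and the RL channel of tumor 3 were not well above background. Glycam1, a mucin-type glycoprotein of milk and of lymph node venules, was above background only in the control culture of tumor 1, where the spot read 94 over a background of 70.

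The promoters of Lalba, Wap, Csn1s1 and Csn2, the genes with the lowest ratios, are shown because 3 of the 4 fell together and Csn2 was below 0 on the same arrays. Each is the 250 bases before the start site in RefSeq (GRCm38.p6), 5′ to 3′ on the strand of the gene, with matches to the motifs searched in capitals. They lie at chr15:98482684-98482933 on the minus strand (Lalba), chr11:6638650-6638899 on the minus strand (Wap), chr5:87665958-87666207 on the plus strand (Csn1s1) and chr5:87699426-87699675 on the minus strand (Csn2).
Lalba: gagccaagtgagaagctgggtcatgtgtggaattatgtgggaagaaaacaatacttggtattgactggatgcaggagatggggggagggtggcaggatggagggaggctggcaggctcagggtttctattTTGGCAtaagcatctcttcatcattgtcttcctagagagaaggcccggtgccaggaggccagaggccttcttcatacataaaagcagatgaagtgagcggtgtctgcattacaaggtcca
Wap: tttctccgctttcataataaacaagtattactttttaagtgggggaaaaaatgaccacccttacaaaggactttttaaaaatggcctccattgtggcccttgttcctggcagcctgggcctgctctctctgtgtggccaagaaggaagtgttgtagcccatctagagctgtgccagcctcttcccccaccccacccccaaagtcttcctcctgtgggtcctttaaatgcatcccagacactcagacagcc
Csn1s1: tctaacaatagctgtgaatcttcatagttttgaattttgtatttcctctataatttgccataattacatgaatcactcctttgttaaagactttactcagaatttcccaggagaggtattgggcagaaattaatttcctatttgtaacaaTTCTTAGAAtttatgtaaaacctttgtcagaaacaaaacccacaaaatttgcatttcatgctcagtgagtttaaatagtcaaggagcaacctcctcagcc
Csn2: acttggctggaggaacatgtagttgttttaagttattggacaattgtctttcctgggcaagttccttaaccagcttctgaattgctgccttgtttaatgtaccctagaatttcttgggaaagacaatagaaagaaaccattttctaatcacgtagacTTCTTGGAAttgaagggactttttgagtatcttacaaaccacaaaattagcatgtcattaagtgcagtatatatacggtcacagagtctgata

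The motifs sought on both strands were the STAT5-type TTCNNNGAA, which reads the same on either strand, the C/EBP-type TTGCNNAA, the kappaB-type motif, an NF1 half-site and a TATA box. RefSeq's promoter table held 6 of the 8 genes, and Csn1s2b and Csn3 had no entry. The STAT5-type motif stood 100 to 92 bases before the start of Csn1s1 and 93 to 85 bases before that of Csn2, and Glycam1 had it 145 to 137 bases before its start. It was found in 3 of the 6 milk protein promoters and in 7.02% of the 32851 promoters of the table. The NF1 half-site type, TTGGCA, stood 120 to 115 bases before the start of Lalba and 156 to 151 bases before that of Glycam1, and 12.3% of all promoters held it. Wap and Csn1s2a had no match to any of the 5 motifs in this window, and no matches overlapped. The TATA box was sought as TATAAA. The kappaB-type, C/EBP-type and TATA box motifs were in 0 of the 6 promoters, against 7.25%, 9.56% and 12.4% of all. A match is a description of letters, and binding was not measured.

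Caseins and whey proteins were then compared on the same arrays, as the difference between the log2 ratio of a whey protein and that of a casein. The median log2 ratio was −1.25 over the 2 whey proteins and −0.35 over the 4 caseins tested, against −0.002 over all genes. In tumors 1, 2 and 3 it was −1.30, −1.53 and −0.93 for the whey proteins and −0.39, −0.26 and −0.39 for the caseins. The whey protein median was thus the lower in each tumor, with the widest gap in tumor 2. Csn1s2a is not among the 4 caseins tested. In tumor 1, where both of its channels were above background, its −1.55 lay below Lalba (−1.40) and Wap (−1.21). Lalba minus Csn1s1 was −0.55, −1.34 and −0.45, a mean of −0.78 (SD 0.49). Lalba minus Csn2 averaged −1.04 (SD 0.48), Lalba minus Csn3 averaged −1.28 (SD 0.36) and Lalba minus Csn1s2b averaged −1.31 (SD 0.38), each below 0 on all 3 arrays. Wap minus Csn3 averaged −0.78 (SD 0.26) and Wap minus Csn1s2b −0.81 (SD 0.25), also below 0 on all 3 arrays.

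Wap did not differ from Csn1s1 and Csn2 in the same direction on every array. Wap minus Csn1s1 was −0.36 and −0.65 in tumors 1 and 2 but 0.16 in tumor 3, a mean of −0.28 (SD 0.41). Wap minus Csn2 was −0.79, −0.85 and 0.03, a mean of −0.54 (SD 0.49). The direction in tumor 3 depended on the processing. There Wap minus Csn1s1 was −0.03 with no offset, −0.08 with the scanner software's processed signals and −0.00855 with the authors' ratios, and Wap minus Csn2 was −0.05 with median centring and −0.01 as a mean over probes. Other settings moved Wap minus Csn2 up in tumor 3, to 0.50 with the processed signals, 0.20 with no offset and 0.12 with the authors' ratios. With the processed signals Lalba minus Csn2 was 0.04 in tumor 3. Of the 8 pairs, 8 had a mean below 0 and 6 were below 0 on all 3 arrays. The exact two-sided sign-flip test gave p = 0.25 for those 6 and p = 0.5 for both others, or 0.333 and 0.5 adjusted over the 8 pairs. With 3 arrays this test cannot go below 0.25, so no pair could pass.

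**Figure D4:**
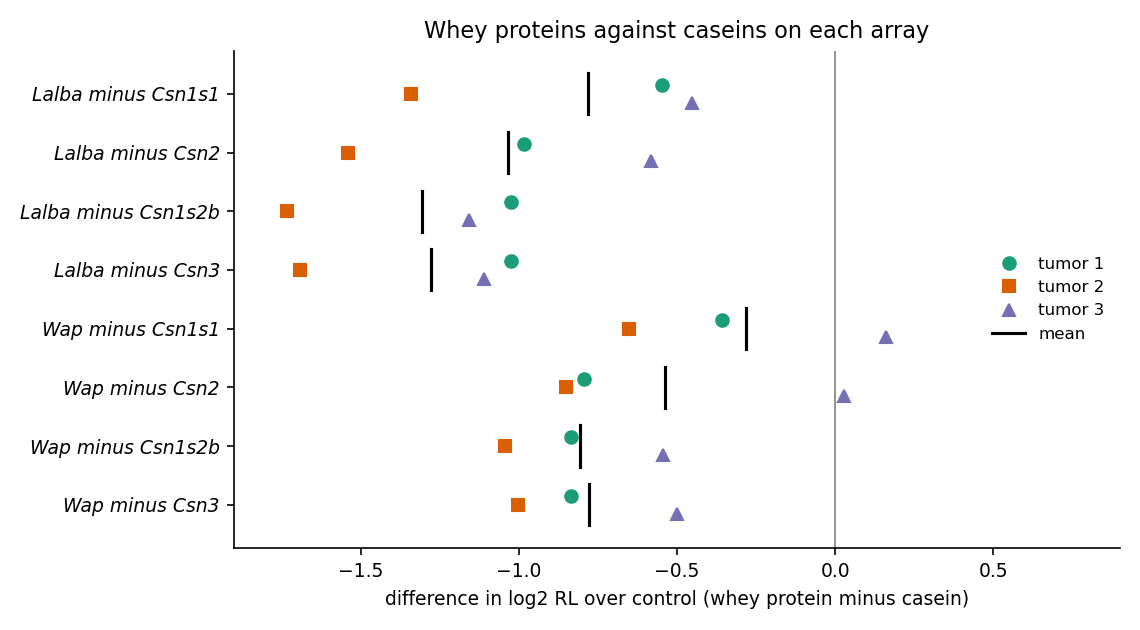
Difference in log2 RL over control between each whey protein and each casein on each of the 3 arrays, with the mean of the 3. For 6 of the 8 pairs all points lie below 0, and for Wap minus Csn1s1 and Wap minus Csn2 the point of tumor 3 lies at 0.16 and 0.03.

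Within each class the genes also differed. Lalba minus Wap was −0.19, −0.69 and −0.61, a mean of −0.50 (SD 0.27). Csn1s1 minus Csn3 was −0.48, −0.35 and −0.66, a mean of −0.50 (SD 0.15), and Csn1s1 minus Csn2 averaged −0.26 (SD 0.16). Csn3 and Csn1s2b lay within 0.05 of each other on each array, and Csn1s2b minus Csn3 averaged 0.03 (SD 0.03). The gap between Lalba and Wap was therefore as wide as that between Csn1s1 and Csn3. The offset added in background correction pulls ratios of dim spots toward 0, which bears on the comparison. Without the offset the log2 ratios were −1.54 for Lalba, −1.16 for Wap, −0.72 for Csn1s1, −0.68 for Csn2, −0.28 for Csn1s2b and −0.24 for Csn3. The gap between Csn1s1 and Csn2 was thus smaller there. With the scanner software's processed signals their order turned, with Csn2 at −0.79 and Csn1s1 at −0.74.

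For each of the 6 genes the level differed more between tumors 1 and 3 than between the conditions of a tumor. Tumors 1 and 3, whose control cultures were both in Cy5 and whose RL cultures were both in Cy3, can be set side by side with no test, as 1 culture stands for each. This contrast was chosen after its values were seen, so its counts only describe these cultures. The control culture of tumor 1 was 6.68 above that of tumor 3 for Lalba on the log2 scale (102-fold), and 0 of the other genes tested had a wider gap. For Csn1s1 the gap was 4.36 (20.5-fold), which 2 genes exceeded, and for Csn3 it was 3.11 (8.64-fold). Wap had a gap of 2.38 (5.20-fold), Csn2 one of 1.85 (3.60-fold) and Csn1s2b one of 1.25 (2.39-fold). At least 4-fold above tumor 3 were 4 of the 6 milk protein genes, against 92 of 21727 genes (0.423%), and 0 were at least 4-fold below it, against 71 (0.327%). The median gap was 2.75 over the 6 genes and 0.008 over all genes.

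In the RL cultures too, tumor 1 lay above tumor 3 for each of the 6 genes. Lalba was 91.8-fold, Csn1s1 19.6-fold, Csn3 7.31-fold, Csn2 4.27-fold, Wap 3.48-fold and Csn1s2b 1.95-fold higher in tumor 1 than in tumor 3. Here too 4 of the 6 genes reached 4-fold, against 67 of all genes (0.308%). The RL culture of tumor 1 and the control culture of tumor 2, both in Cy3, show how the scales compare. The treated tumor 1 was 6.74-fold above the untreated tumor 2 for Lalba, 4.54-fold for Csn3, 3.19-fold for Csn2 and 2.72-fold for Csn1s1, whereas Csn1s2b was 1.04-fold and Wap 0.722-fold of that level. The control cultures were also compared under 7 other settings of background, signals, normalization or outlier spots, an alternative chosen after seeing the data. There 4 to 6 milk protein genes were at least 4-fold higher in tumor 1 than in tumor 3, with a background of 0.341% to 0.736%.

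Markers of cell types also differed between tumors 1 and 3. The 7 alveolar progenitor markers had a median gap of 1.08 in the control cultures, and their summed normalized intensities were 81055, 46404 and 36379 in tumors 1, 2 and 3, and the gene with the highest mean over the 6 channels was Elf5. The 6 basal markers tested had a median gap of −1.52, with sums of 44102, 79684 and 128847, and Krt14 had the highest mean. The 8 fibroblast markers had a median gap of −0.94, Col1a1 having the highest mean, at sums of 9720, 4517 and 18696. The 9 luminal markers had a median gap of −0.12, Krt18 having the highest mean, at sums of 343848, 229183 and 408568. Probes of different genes can respond differently, so these names do not rank transcripts. What part these marker differences have in the milk protein levels was not tested.

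**Figure D5:**
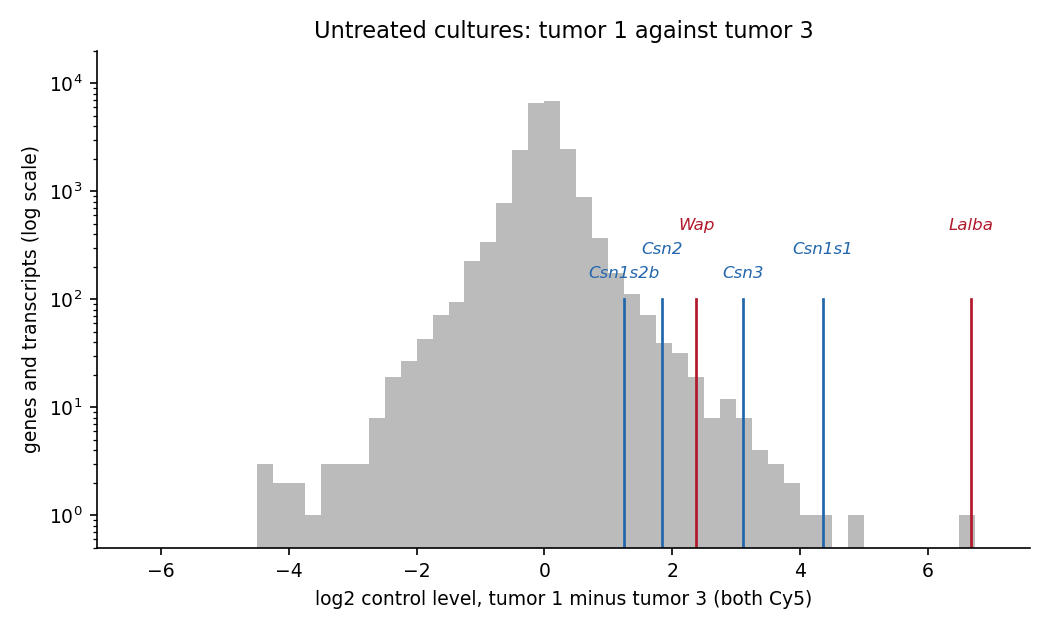
Number of genes and transcripts (log scale) by the log2 difference between the control cultures of tumor 1 and tumor 3, both in Cy5, with the milk protein genes as lines. Lalba stands farthest right at 6.68 and Csn1s1 at 4.36, and all 6 lines lie above 1.

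The 5 caseins share a stretch of chromosome 5 in the order Csn1s1, Csn2, Csn1s2a, Csn1s2b and Csn3. Between them lie 7 other genes of the RefSeq table. Including 5 more genes on each side, the locus gave 17 neighbors, of which 9 had a probe. Of those 9, 7 were not well above background in any channel, among them the enamel gene Odam and the sulfotransferases Sult1b1, Sult1d1 and Sult1e1, and Smr2 was above it in 2 channels. The 1 neighbor tested, Gm7337, had log2 ratios of −0.04, −0.05 and −0.01, with a mean of −0.03 (SE 0.07, adjusted p = 0.947 from limma). The scanner software's processed signals and median centring gave it a ratio above 0. Its log2 intensity was 6.18 to 6.32 in the 6 channels, a range in which the offset of background correction pulls ratios to 0, so no comparison with the caseins beside it was made.

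Genes for other milk components had a median nearer to 0 than the caseins. Of 16 such genes 15 were tested, with a median log2 ratio of −0.15. By limma 0 passed, with 4 lower and 1 higher at an unadjusted p under 0.05. At that threshold 778 were lower and 762 higher of all 21743 genes and transcripts. Spp1, the milk phosphoprotein osteopontin, had −0.51, −0.38 and −0.47, a mean of −0.45 (SE 0.07, adjusted p = 0.125 from limma). Mfge8, which coats milk fat globules, had −1.26, 0.10 and −0.57, a mean of −0.58 (SE 0.20, adjusted p = 0.581), so its ratio was not below 0 in tumor 2. The membrane mucin Muc15 had a mean of 0.46 (adjusted p = 0.330) and was above 0 on all 3 arrays. By rank product, which called Csn2, Spp1 and Mfge8 passed as well, with pfp of 0.0305 and 0.0251. With a dye term in limma their adjusted p were 0.000559 and 0.0134, and that of Muc15 was 0.00411.

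The partners of Lalba in lactose synthesis had ratios nearer to 0. The 8 tested of 9 genes had a median log2 ratio of −0.05, and by limma 0 passed, with 0 in either direction at an unadjusted p under 0.05. B4galt1, the enzyme that alpha-lactalbumin modifies, had −0.28, 0.08 and −0.18, a mean of −0.12 (adjusted p = 0.822), against −1.50 for Lalba. The hexokinase Hk1 had −0.32, 0.08 and −0.31, a mean of −0.18, and like B4galt1 exchanged its sign with the dye order. The phosphoglucomutase Pgm2 had 0.11, −0.18 and −0.20, a mean of −0.09. With a tumor left out the means ran from −0.31 to −0.11 for Hk1 and from −0.19 to −0.03 for Pgm2. For casein phosphorylation and calcium transport, 8 of 9 genes were tested, with a median of −0.05. Limma passed 0 of them, with 3 lower and 0 higher at an unadjusted p under 0.05, against 778 and 762 of all 21743. Fam20a, the pseudokinase partner of the casein kinase Fam20c, had −0.59, −0.42 and −0.44, a mean of −0.48 (SE 0.07, adjusted p = 0.114). It passed by rank product (pfp of 0.0223) and with a dye term in limma (adjusted p = 0.000272). The calcium channel Orai1 and the secretory pathway calcium pump Atp2c2 were both at −0.26.

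Known activators of milk genes had a median of −0.03 over 16 genes, all of them tested. By limma 0 passed, with 1 lower and 1 higher at an unadjusted p under 0.05, against 778 and 762 of all 21743. The prolactin receptor Prlr was at −0.05, Stat5a at −0.02, Stat5b at 0.02 and Elf5 at −0.14, and in limma the adjusted p of each was 0.738 or higher. Stat5b was below 0 without background correction, with median centring, as a mean over probes and without tumor 2, and Stat5a was above 0 without tumor 1. Id2, which lobuloalveolar development requires, was at −0.33 and Jak2 at 0.17. Irs1 had −0.53, 0.13 and −0.20, a mean of −0.20, and exchanged its sign with the dye order. With a tumor left out the mean of Irs1 ran from −0.37 to −0.03. Known restrainers of the pathway, 10 of 10 tested, had a median of −0.02, and by limma 0 passed, with 0 lower and 2 higher at an unadjusted p under 0.05. Cish, a Stat5 target that damps cytokine signaling, had 0.50, 0.15 and 0.17, a mean of 0.27 (adjusted p = 0.536). The phosphatase Ptpn2 was at 0.25. Yy1, a repressor of the beta-casein promoter, had 0.24, −0.05 and 0.27, a mean of 0.15, and exchanged its sign with the dye order. With a tumor left out the means ran from 0.14 to 0.33 for Ptpn2 and from 0.09 to 0.25 for Yy1.

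Relatives of the whey proteins by sequence had ratios on both sides of 0. Of 12 genes with WAP or lysozyme domains 8 were tested, and their median was −0.06. By limma 0 passed, with 1 lower and 2 higher at an unadjusted p under 0.05, against 778 and 762 of all 21743. Wfdc3 was at −0.35 (adjusted p = 0.423 from limma), while Slpi and Wfdc2 were above 0 on all 3 arrays, at 0.27 and 0.23. Wfdc18 is also in the list of other milk components, Lyz2 in the myeloid list, Prlr in the hormone-sensing list and Elf5 in the alveolar progenitor list.

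The mean ratio of the 6 milk protein genes was −0.77, −0.71 and −0.59 in tumors 1, 2 and 3. By Euclidean distance over the 3 arrays, Lrg1, a secreted glycoprotein, was the nearest of 21715 other genes, at 0.139. It had −0.84, −0.72 and −0.70, a mean of −0.75 (SE 0.07, adjusted p = 0.0193 from limma). Next came Foxi1, a forkhead transcription factor of ionocytes, at a distance of 0.176 with −0.74, −0.81 and −0.73 (adjusted p = 0.0193). Without tumor 1 or tumor 3 the adjusted p of both was 0.105 and 0.176. Emid1 was at a distance of 0.192 and Atp6v1b1, a subunit of the proton pump, at 0.201, with mean log2 ratios of −0.60 and −0.62 and adjusted p of 0.0769 and 0.0929. The fifth was a transcript that the RefSeq table does not hold, at 0.219. Csn1s1 itself lay 0.278 from this mean and Lalba 1.48. Foxi1 and Lrg1 were also higher in the control of tumor 1 than of tumor 3, by 2.97 and 3.15 on the log2 scale.

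Between RL and control cultures the medians of the cell type markers lay between −0.10 and 0.04. The median log2 ratio was −0.02 for luminal, −0.02 for alveolar progenitor, 0.01 for hormone-sensing, −0.10 for basal, −0.05 for fibroblast, −0.06 for myeloid, −0.01 for lymphocyte, −0.005 for endothelial and 0.04 for adipocyte markers. With a tumor left out the median changed its sign in 7 of these 9 lists, all but the myeloid and adipocyte ones. For alveolar progenitor markers it was 0.05, −0.18 and 0.06 in tumors 1, 2 and 3 and ran from −0.12 without tumor 1 to 0.08 without tumor 2, and for fibroblast markers it ran from −0.17 without tumor 2 to 0.05 without tumor 1. By limma 0 of these markers passed, and 6 had an unadjusted p under 0.05, against 778 lower and 762 higher of all 21743. Luminal markers summed to 287960, 259000 and 315734 in the RL cultures of tumors 1, 2 and 3. The log2 ratio of Krt18 was −0.73, 0.43 and −0.70, with the sign exchanged in the tumor of the other dye order. Alveolar progenitor markers summed to 83740, 39655 and 36555, against 81055, 46404 and 36379 in the control cultures. Of these markers 2 were below 0 on all 3 arrays, Elf5 at −0.19, −0.17 and −0.07 and Kit at −0.09, −0.31 and −0.25, and 2 were above 0 on all 3, Ehf and Rspo1. At an unadjusted p under 0.05 in limma, 2 alveolar progenitor markers were lower, Kit and Hey1, and 1 higher, Rspo1. Hey1 had −0.30, −0.41 and 0.04, and Elf5 did not reach that threshold (unadjusted p = 0.0692 from limma). The part of these markers in the fall of Lalba, Wap and Csn1s1 was not tested. The marker with the largest ratio of its list was Rspo1 at 0.24 for alveolar progenitors, Foxa1 at 0.26 for hormone-sensing cells, Krt14 at −0.19 for basal cells and Pdgfra at −0.19 for fibroblasts. In the other lists it was Fcer1g at −0.29 for myeloid cells, Cd4 at −0.04 for lymphocytes, Pecam1 at −0.11 for endothelium and Fabp4 at 0.16 for adipocytes. Of these 8 markers, Rspo1, Pdgfra and Fcer1g had 1 sign on all 3 arrays. Foxa1, at 0.65, −0.18 and 0.31, exchanged its sign with the dye order, as did Cd4, Pecam1 and Fabp4, and Krt14 was above 0 in tumor 1. With a tumor left out the mean ran from 0.06 to 0.48 for Foxa1, from −0.31 to −0.05 for Krt14 and from −0.27 to −0.10 for Pdgfra.

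Among the reference genes, 6 of 8 exchanged their sign with the dye order. Actb, which encodes beta-actin, had −0.65, 0.57 and −0.70 in tumors 1, 2 and 3, with the opposite sign in tumor 2. The exceptions were B2m, at 0.33, 0.05 and 0.05, and Hprt, at −0.07, 0.19 and 0.06. The 8 reference genes had medians of −0.31, 0.23 and −0.27, and −0.09 for the means, and by limma 0 passed, with 0 at an unadjusted p under 0.05. With a dye term in the model the log2 ratio was −1.60 for Lalba, −1.05 for Wap and −0.67 for Csn1s1.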

How the data were processed

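RNA of 6 tumor cultures was hybridized on 3 two-color Agilent arrays. Spots were read by the authors in Agilent Feature Extraction (10.7.3.1, default settings), and they deposited median spot and local background intensities without correction, and the software's processed intensities. They also deposited normalized log2 ratios that run Cy5 over Cy3. Set against the ratios computed here as RL over control, these had r of −0.965, 0.956 and −0.963 across genes, slopes of −1.15, 1.17 and −1.15 and medians of 0.00329, 0.000361 and 0.000888. They served as an alternative, turned for tumors 1 and 3.

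The analysis ran in limma 3.58.1 under R 4.3.3, with normexp (offset 50) for the background, then intensity loess, spatial loess (span 0.1) and Aquantile. Outlier spots were left out. Accessions without versions were matched to the RefSeq table of GRCm38.p6, and 28026 of 55681 probes had a symbol. The brightest kept probe stood for a gene. Fits by lmFit and eBayes, on 2 residual degrees of freedom plus a prior of 6.65, used Benjamini-Hochberg adjustment over 21743 genes and transcripts, 14043 of them named, with a threshold of 0.05. The fit with a dye term had 1 residual degree of freedom. The RL and control cultures of a tumor are paired by the labels, which put them on 1 array. Arrays shared 1 slide and 1 scan. The exact rank product was written for this work. Both tests were tested on simulated data.

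The named genes were the 8 milk protein genes, up to 3 genes of each other list with the largest mean change (1 for cell type markers and reference genes), Prlr, Stat5a, Stat5b, Elf5, B4galt1, Nfkbia, Nfkb2, Relb and Traf1, and the 5 genes nearest in profile. Ubd was chosen after its values were seen, as was the contrast of tumors 1 and 3. The members and gene lists were chosen with earlier results of these data known. The 20 alternatives changed the test, model, background, normalization, filter, probe rule or arrays.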

Additional observations from a re-analysis of the deposited data

How the results depend on the processing

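The log2 ratios of the 6 tested milk protein genes and of the dimmer Wap probe were below 0 in all 137 values that the alternatives gave. Of these, 66 were the reported value itself, because the alternative left these ratios as they were, so that their direction could not change, and 21 came from leaving out a tumor. Of the 137, 109 stayed on the same side of the threshold, 25 lost it and 3 gained it. The mean whey minus casein differences were below 0 in all 152 values, of which 68 were likewise the reported value and 24 came from leaving out a tumor. Single arrays changed direction in 6 cases, all in tumor 3. Of 820 values for the other named genes, 400 of them the reported value, 8 changed direction, 12 lost and 50 gained the threshold. What caused the shifts below was not tested, except where fewer arrays or another number of genes entered. Dim probes limit what the arrays can show: in tumor 3 Csn1s2b read 60 over a background of 37 in the RL channel.

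The counts of genes higher and lower with RL were 37 and 51 by rank product, 121 and 158 after adding a dye term, 9 and 21 if eBayes took an intensity trend, and 7 and 13 with robust moderation. They were 6 and 11 without background correction, 0 and 2 with no offset, 0 and 3 with no filter on dim probes, and 0 and 3 with the filter on all 6 channels. With the authors' deposited ratios 2 were higher, the mean over probes gave 3 lower, and the fit per probe gave 8 lower. Limma gave 0 and 0 without the replicate block (pairing by tumor), with the processed signals and with median centring. At an unadjusted p under 0.05 the counts higher and lower were then 44 and 20, 854 and 806, and 7 and 16. Where 0 were higher, they were 782 with no offset, 1140 with no filter and 721 with the strict filter, and 395 and 332 without tumors 1 and 3. Leaving out each tumor gave 0 to 557 higher and 1 to 915 lower. Milk protein genes past the threshold numbered 1 with no offset, no filter, the strict filter or the mean over probes, 0 without the replicate block, with processed signals or with median centring, and 1 to 4 with a tumor left out.

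Without the replicate block Lalba was at −1.50, Wap at −1.01, Csn1s1 at −0.72 and the dimmer Wap probe at −0.96, each with an adjusted p of 1 from limma. The block changed no other call of a milk protein gene. With the processed signals these values were −1.50, −1.17, −0.74 and −1.21, with adjusted p from limma of 0.376, 0.376, 0.446 and 0.352. Median centring moved the median of all genes to −0.11, or −0.41, 0.43 and −0.35 by tumor, and gave −1.74, −1.11, −0.93 and −1.05 with adjusted p of 1. Relative to that shift the values were −1.63 for Lalba, −0.997 for Wap, −0.81 for Csn1s1, −0.49 for Csn2, −0.26 for Csn3 and −0.13 for Csn1s2b. With no offset Wap was at −1.16 (adjusted p = 0.0549 from limma) and Csn1s1 at −0.72 (0.133). With no filter Wap, Csn1s1 and the dimmer Wap probe kept −1.01, −0.72 and −0.96, with adjusted p of 0.166, 0.139 and 0.0804. With the strict filter the former 2 kept −1.01 and −0.72 (0.057 each), and with the mean over probes they had −0.98 and −0.72 (0.0526 each). The authors' ratios gave Csn1s1 −0.74 (0.0504). Csn2 passed at −0.47 by rank product and at −0.43 with a dye term. Leave-one-out ranges were −1.20 to −0.91 for Wap, −0.82 to −0.66 for Csn1s1 and −0.53 to −0.37 for Csn2. Adjusted p over all alternatives ran from 0.000127 to 1 for Csn2 and from 3.26e-11 to 1 for the dimmer Wap probe.

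The median of the caseins was −0.48 with no offset, −0.51 with processed signals, −0.49 with median centring, −0.47 with no filter and −0.43 with the authors' ratios. Under median centring the medians were −0.34 for other milk components, −0.23 for lactose synthesis, −0.18 for casein phosphorylation and calcium transport, −0.19 for activators, −0.12 for restrainers, −0.21 for alveolar progenitor, −0.14 for hormone-sensing, −0.21 for basal, −0.20 for myeloid, −0.13 for lymphocyte, −0.12 for endothelial and −0.0163 for adipocyte markers. Other milk components had −0.10 and basal markers −0.0735 with a dye term, basal markers −0.0768 with no filter, and casein phosphorylation and calcium transport −0.11 with the strict filter. Lymphocyte markers were at −0.0313 with processed signals, −0.00602 without spatial loess and 0.000792 with the authors' ratios. Leave-one-out ranges were −0.150 to −0.0904 for other milk components, −0.0504 to −0.0336 for activators, −0.0753 to 0.0176 for lactose synthesis, −0.0147 to 0.0418 for restrainers, −0.130 to 0.0317 for relatives of the whey proteins and −0.279 to 0.00361 for reference genes. For markers they were −0.0603 to 0.0531 (luminal), −0.119 to 0.0824 (alveolar progenitor), −0.00713 to 0.0472 (hormone-sensing), −0.123 to 0.0119 (basal), −0.173 to 0.0476 (fibroblast), −0.0244 to 0.00214 (lymphocyte) and −0.0286 to 0.0167 (endothelial).

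Gm7337, the tested casein neighbor, was at 0.0282 with processed signals, 0.0108 with median centring, −0.00509 without background correction, −0.100 with no offset and −0.0580 with the authors' ratios. Stat5b was at −0.00586 without background correction, −0.155 with median centring, −0.0311 as a mean over probes and −0.17 to 0.18 with a tumor left out. With a tumor left out Cd4 ranged from −0.0684 to 0.00214 and Stat5a from −0.0402 to 0.0175. Mean levels with processed signals were 7.20 for Wap, 6.37 for Csn2 and 5.86 for Csn1s2b in RL cultures and 6.14 for Csn1s2b in controls, and with no offset RL Csn1s2b was at 6.61.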
